A study of Mus musculus with 20 samples.

Results

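The type 1 chemokine axis was followed here through 9 named genes: the interferon-inducible chemokines Cxcl9, Cxcl10 and Cxcl11 with their receptor Cxcr3, the chemokines Ccl3, Ccl4 and Ccl5, the cytokine gene Ifng and the transcription factor gene Tbx21. The 9 genes were taken by symbol from a table of estimated counts for 35204 genes, all 9 were found, and 8 passed the filter on low counts (Ifng did not). RNA came from the terminal ileum of 20 female C57BL/6 mice that were 7 weeks old at the start and spent 3 weeks on diet. One group was fed the control diet (CD) and one a tryptophan-deficient diet (TDD), both with their microbiota intact (specific pathogen-free, SPF). The other two groups were fed the same diets with an antibiotic cocktail (ABX) of ampicillin, vancomycin, gentamycin, metronidazole and neomycin in the drinking water (CD+ABX and TDD+ABX). Each group held 5 separate mice, none of them carried a transgene or a deletion by the labels, and each sample was a whole piece of gut wall, 0.5 cm long and cut 2 cm from the cecum.

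As background, CXCL9, CXCL10 and CXCL11 are secreted by myeloid, stromal and epithelial cells, above all after interferon-gamma, and draw T helper 1 cells, CD8 T cells and natural killer (NK) cells that carry CXCR3. CCL3, CCL4 and CCL5 are released largely by activated T, NK and myeloid cells and attract T cells and monocytes. T-bet, the product of Tbx21, drives Ifng and Cxcr3 in these cells, so that interferon-gamma from recruited cells can raise the chemokines that recruit them.

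In SPF mice, TDD feeding lowered Cxcl9 and Cxcl10 by 3.04-fold and 3.40-fold, and these 2 calls did not depend on any single mouse. Cxcr3 and Ccl5 were also called lower, but both calls rested on CD mice 4 and 5. With ABX, no gene of the axis was called between the diets, where Cxcl9 changed by -0.89 (q = 0.053, edgeR) and Cxcl10 by -0.91 (q = 0.21, edgeR) on the log2 scale. The difference between the diet effects with and without ABX was called for 0 of the 8 genes tested. ABX treatment of CD mice lowered Ccl5, Cxcr3, Ccl4 and Tbx21, by 2.53-fold to 5.46-fold, whereas the level of Cxcl11 differed by 1.08-fold, within its spread. Ccl5 and Cxcr3 were still called here without CD mice 4 and 5, with smaller changes (-1.11 and -1.06 on the log2 scale), and Ccl4 and Tbx21 were not. Ccl4 passed the filter on low counts only through CD mice, which favoured a fall from CD. Throughout, q is the p-value of edgeR's quasi-likelihood test after Benjamini-Hochberg adjustment over all 16306 genes tested, and a call needed q under 0.05 and at least a 2-fold change. Levels are given as CPM, counts divided by library size after TMM scaling.

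Compared per length, as TPM (counts scaled by transcript length and depth) averaged over the 4 groups, the level of Ccl5 was the highest at 33.6 TPM. Cxcl11 followed at 4.56 TPM, nearly all of it on a pseudogene transcript, Cxcl9 at 2.86 and Cxcl10 at 2.61, and then Cxcr3 at 1.17, Ccl3 at 1.04, Ccl4 at 0.993 and Tbx21 at 0.498 TPM. Ifng was at 0.0726 TPM, with at most 10 counts in any mouse. In CD mice, the level of Ccl5 was 79.7 ± 65.9 TPM (SD, n = 5), and those of Cxcl9, Cxcl10 and Cxcl11, at 5.57 ± 1.40, 4.63 ± 1.96 and 4.63 ± 0.438 TPM, lay within each other's spread. Of the Cxcl9 level in CD mice, 1.895 TPM lay on a retained-intron transcript of 370 bases, which held 3.55% of the counts of the gene over all mice. On the main coding transcripts alone, Cxcl9 was at 3.675 ± 0.667 and Cxcl10 at 4.21 ± 1.77 TPM in CD mice, so the order of these 2 genes depends on the transcripts counted.

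The genes for CXCL9, CXCL10 and CXCL11 lie side by side on the minus strand of chromosome 5 (GRCm38, GENCODE annotation). Cxcl9 (ENSMUSG00000029417.9) spans 92321347 to 92328079, Cxcl10 (ENSMUSG00000034855.13) 92346638 to 92348889 and Cxcl11 (ENSMUSG00000060183.6) 92359544 to 92365485. Ccl5 (ENSMUSG00000035042.2, 83525778 to 83530518), Ccl3 (ENSMUSG00000000982.5, 83647844 to 83649355) and Ccl4 (ENSMUSG00000018930.3, 83662584 to 83664683) form a cluster on chromosome 11, which also carries Tbx21 (ENSMUSG00000001444.2, 97098071 to 97115331). Cxcr3 (ENSMUSG00000050232.6) lies on chromosome X from 101731535 to 101734269, and Ifng (ENSMUSG00000055170.4) on chromosome 10 from 118441046 to 118445892.

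The promoters of Cxcl9 and Cxcl10 are shown because these neighbours had the most stable change with diet. The RefSeq promoter table (GRCm38.p6) held 6 of the 9 genes and not Cxcl11, Ccl4 and Ccl5. The 250 bases before the start are printed 5′ to 3′ on the minus strand, chr5:92328080-92328329 for Cxcl9 and chr5:92348890-92349139 for Cxcl10. Capitals mark matches on either strand to 1 of 5 motifs.
Cxcl9: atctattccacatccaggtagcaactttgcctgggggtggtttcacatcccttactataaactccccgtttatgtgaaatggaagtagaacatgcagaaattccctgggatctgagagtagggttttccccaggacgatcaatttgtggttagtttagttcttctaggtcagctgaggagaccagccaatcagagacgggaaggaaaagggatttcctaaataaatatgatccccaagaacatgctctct
Cxcl10: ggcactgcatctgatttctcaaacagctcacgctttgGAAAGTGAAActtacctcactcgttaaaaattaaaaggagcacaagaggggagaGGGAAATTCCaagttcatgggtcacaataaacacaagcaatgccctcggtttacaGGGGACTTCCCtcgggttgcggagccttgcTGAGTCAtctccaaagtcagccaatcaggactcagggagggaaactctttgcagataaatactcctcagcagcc

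The motifs searched were the interferon-gamma-activated site GAS (TTCNNNGAA), the core of the interferon-stimulated response element, ISRE (a pair of GAAA runs with any 2 bases between them), the kappaB motif, a T-box motif (TCACACCT) and AP-1 (TGANTCA). The Cxcl10 window held an ISRE core 213 bases before the start, kappaB matches at 159, 104 and 103 bases, of which the last 2 overlap, and an AP-1 match at 74 bases. The Cxcl9 window held no exact match to any of the 5, and near matches were not searched. The Ifng window held a GAS match 249 bases before the start, and those of Cxcr3, Ccl3 and Tbx21 held none, where the RefSeq start of Cxcr3 lies downstream of its GENCODE start. Of all 32851 promoters of this length, 2.98% held the ISRE core, 7.25% kappaB, 6.75% AP-1, 7.02% GAS and 1.12% the T-box motif. A match is a run of letters and no measurement of binding.

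The total depth ranged from 36.68 to 58.66 M counts per mouse. Since levels were measured in whole tissue, fewer cells of a type and less RNA per cell cannot be told apart. CD mice 4 and 5 stood apart: the summed level of 13 T cell markers was 110.0 and 166.4 CPM there, against 60.6 to 70.5 in the other CD mice, 44.8 to 80.6 on TDD, 29.5 to 38.7 on CD+ABX and 28.9 to 57.4 on TDD+ABX. The sum of 11 NK and cytotoxic cell markers was 76.8 and 134.8 CPM in these 2 mice, against 13.9 to 37.7 CPM in the others. The sum of 13 macrophage and dendritic cell markers ran from 279.8 to 364.9 CPM on CD, 158.2 to 277.0 on TDD, 193.8 to 224.3 on CD+ABX and 156.1 to 198.9 on TDD+ABX. No marker of these 3 lists was at 0 in all mice. The tests were therefore repeated without CD mice 4 and 5, an alternative chosen after the data were seen. Of the ileal markers, Cubn was at 623 CPM or more in every mouse, whereas Fabp6, the ileal bile acid binding protein, ran from 0.238 to 144 CPM and was low without ABX, at 1.17 ± 0.969 CPM on CD and 1.40 ± 1.58 on TDD (SD, n = 5 each).

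**Figure D1:**
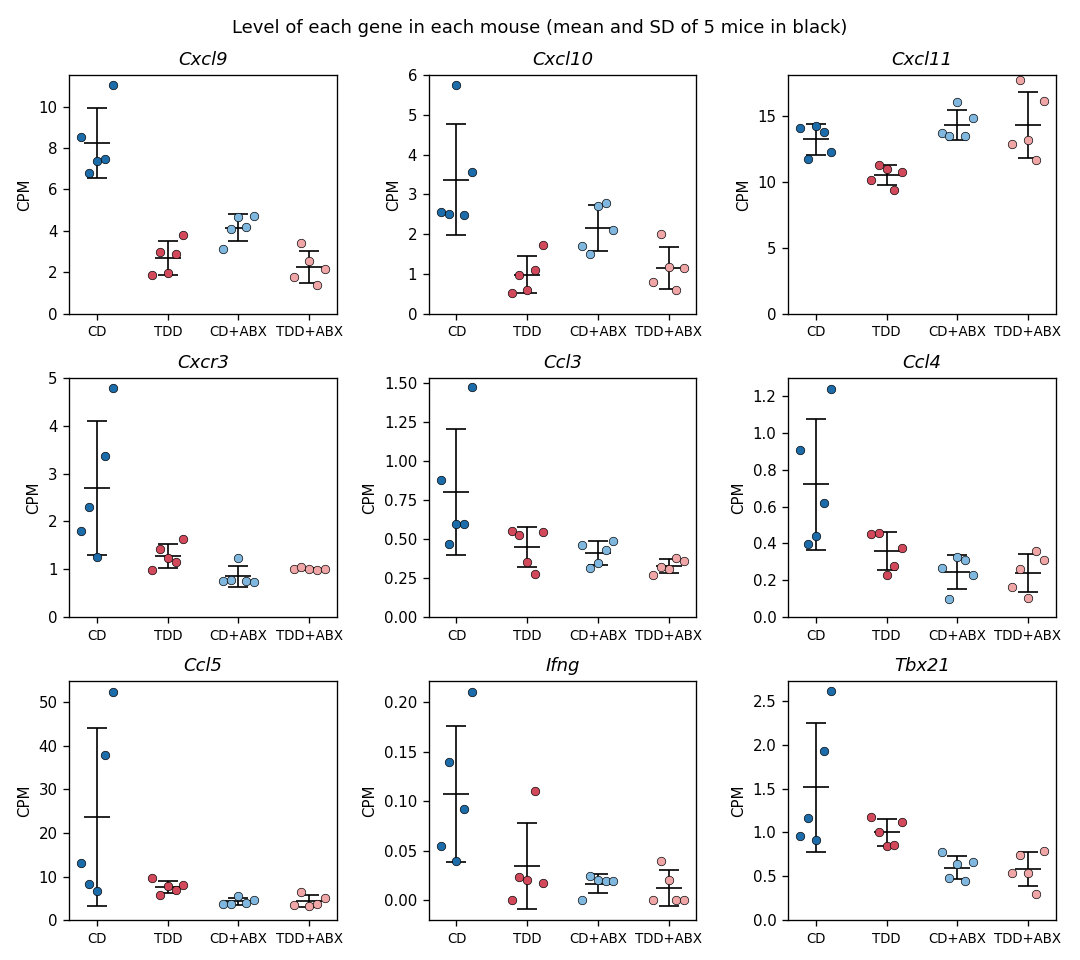
CPM (vertical axes, linear, each panel with its own range) of the 9 genes in the 4 groups, with 1 point per mouse in the order of the mouse numbers, and the mean and SD of 5 mice in black. Cxcl9 in the 5 CD mice lay between 6.77 and 11.05 CPM, above the other 15 mice, whereas the high CD means of Ccl5, Cxcr3 and Tbx21 came from mice 4 and 5.

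Cxcl9, the ligand of CXCR3 most closely tied to interferon-gamma, was at 8.51, 6.77, 7.38, 7.48 and 11.05 CPM in CD mice 1 to 5 and at 1.86, 3.0, 1.95, 2.89 and 3.82 CPM in TDD mice 1 to 5. With ABX it was at 3.11, 4.08, 4.65, 4.20 and 4.73 CPM on CD and at 1.76, 3.40, 2.52, 1.39 and 2.15 CPM on TDD. All 5 CD mice lay above all other mice, and the CD+ABX and TDD+ABX groups overlapped in 1 mouse, TDD+ABX mouse 2. TDD lowered Cxcl9 in SPF mice (log2 fold change -1.60, standard error 0.23, q = 0.000164, edgeR). Leaving out 1 mouse at a time kept the call in all 20 fits, with changes from -1.76 to -1.49, and without CD mice 4 and 5 together it was -1.49 (q = 0.00198, edgeR). In ABX-treated mice the change was -0.89 (standard error 0.23) and missed the threshold (q = 0.053, edgeR), though without TDD+ABX mouse 2 it was -1.09 (q = 0.0268, edgeR) and was called. ABX lowered Cxcl9 on CD by 1.98-fold, just under the fold limit (log2 fold change -0.99, q = 0.00719, edgeR; -0.85 and q = 0.0474 without CD mice 4 and 5), and on TDD the change was -0.27 (q = 0.446, edgeR). The order of the groups was thus CD, CD+ABX, TDD and TDD+ABX, in which CD+ABX overlapped TDD, and TDD overlapped TDD+ABX.

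Cxcl10, which is induced by type I interferon as well, was at 2.56, 2.51, 5.74, 2.48 and 3.56 CPM in the CD mice and at 0.527, 0.985, 0.600, 1.10 and 1.72 CPM in the TDD mice. With ABX it was at 1.70, 1.51, 2.70, 2.78 and 2.09 CPM on CD and at 0.806, 2.0, 1.18, 0.597 and 1.15 CPM on TDD. CD and TDD mice did not overlap, and CD mouse 3, the highest of all, was not one of the 2 mice with high T cell markers. In SPF mice, TDD lowered Cxcl10 (log2 fold change -1.76, standard error 0.35, q = 0.00253, edgeR). The call held in all 20 fits that left out 1 mouse, with the smallest change, -1.48, without CD mouse 3, and without CD mice 4 and 5 the change was -1.87 (q = 0.00882, edgeR). With ABX the diets differed by -0.91 (standard error 0.34, q = 0.21, edgeR). The effect of ABX was -0.64 on CD (q = 0.233, edgeR) and 0.21 on TDD (q = 0.724, edgeR), neither past the threshold. The order of the groups was CD, CD+ABX, TDD+ABX and TDD, with overlap between each pair of neighbours. Cxcl10 lies within the span of Art3 on the other strand and shares 133 of its 2252 exon bases with it. Whether the libraries kept strand is not given in the sources used here, and Art3 changed with diet by 0.26 in SPF mice (q = 0.568, edgeR).

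Macrophages and dendritic cells are known sources of CXCL9 and CXCL10. As a list, their markers were lower with TDD in SPF mice, as both genes were. Of the 13 markers, 6 were lower on TDD in SPF mice at q under 0.05 by edgeR, none of them by 2-fold, where 7.71% of all genes were lower at q under 0.05, and the median log2 fold change of the list was -0.40. Without CD mice 4 and 5, 3 of the 13 were lower at q under 0.05 (Adgre1, Csf1r and C1qb, edgeR), and the median was -0.35. With ABX, the median of the list was -0.49 on CD and -0.34 on TDD, with all 13 changes negative on either diet. Cxcl9 changed with ABX by -0.99 on CD (q = 0.00719, edgeR) and by -0.27 on TDD (q = 0.446, edgeR). Cxcl10 changed by -0.64 on CD (q = 0.233, edgeR) and by 0.21 on TDD (q = 0.724, edgeR). The part of cell number in these changes was not tested. Per 100 CPM of these summed markers, Cxcl9 stood at 2.12 to 3.04 CPM on CD and at 0.895 to 1.38 on TDD. Cxcl10 stood at 0.787 to 1.79 CPM on CD and at 0.276 to 0.620 on TDD. Neither ratio overlapped between the diets in SPF mice. In CD+ABX mice the ratios were 1.52 to 2.13 for Cxcl9 and 0.779 to 1.32 for Cxcl10, and both overlapped those of CD mice. In TDD+ABX mice they were 0.892 to 2.02 for Cxcl9 and 0.382 to 1.19 for Cxcl10.

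Cxcl11, the third ligand of CXCR3, moved differently. Its level was 14.1, 11.7, 14.3, 13.7 and 12.2 CPM in the CD mice and 10.2, 11.2, 10.99, 9.41 and 10.7 CPM in the TDD mice. It was 13.7, 13.4, 16.05, 13.5 and 14.8 CPM on CD+ABX and 12.9, 17.7, 13.2, 11.6 and 16.1 CPM on TDD+ABX. TDD mice lay below every mouse of the other 3 groups. The change with TDD in SPF mice was -0.33 (standard error 0.10, q = 0.0332, edgeR), which is 1.26-fold, and with ABX it was 0.00 (standard error 0.10, q = 0.998, edgeR). ABX raised Cxcl11 on TDD by 0.44 (standard error 0.10, q = 0.00759, edgeR), a 1.36-fold rise under the fold limit, and on CD the difference was 0.12 (q = 0.52, edgeR). The change with TDD in SPF mice was -0.36 without CD mice 4 and 5, with q = 0.0871 (edgeR).

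As background, C57BL/6 mice carry a frameshift in Cxcl11 and make no functional CXCL11, and the annotation types the gene as a polymorphic pseudogene. Of the estimated counts of this gene, 99.86% fell on the transcript ENSMUST00000122808.1 (polymorphic pseudogene, 3794 bases) and 0.14% on ENSMUST00000077820.5 (protein coding, 1581 bases). The first has 2213 exon bases that the second lacks, of which 2208 lie upstream of the start of the second. The level, rank and changes given for Cxcl11 may therefore not measure the coding transcript. No exon base of Cxcl11 is shared with Art3, although Cxcl11 too lies inside its span. For Cxcl9 and Cxcl10, the protein-coding transcripts ENSMUST00000113093.4 and ENSMUST00000038816.12 held 96.45% and 89.98% of the counts.

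**Figure D2:**
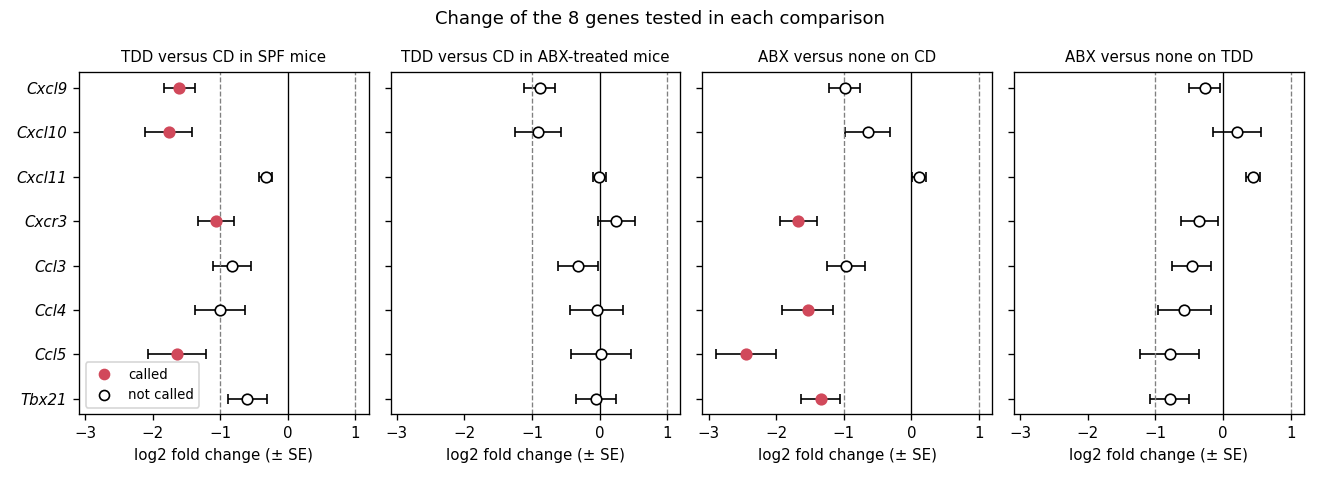
Log2 fold change with its standard error (horizontal axes) of the 8 genes tested in each of 4 comparisons, with filled red points for called genes and dashed lines at the 2-fold limit. With TDD in SPF mice Cxcl9 fell by 1.60 and Cxcl10 fell by 1.76 on the log2 scale, with ABX on CD Ccl5 fell by 2.45, and no point is filled for the diet in ABX-treated mice or for ABX on TDD.

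Cxcr3, the receptor of these ligands on activated T and NK cells, was at 1.79, 2.30, 1.26, 3.37 and 4.80 CPM on CD and at 0.978, 1.42, 1.24, 1.16 and 1.63 CPM in TDD mice. On CD+ABX it was at 0.749, 0.767, 1.23, 0.759 and 0.735 CPM, and on TDD+ABX between 0.975 and 1.04 CPM in every mouse. CD mice lay above all CD+ABX mice, but CD mouse 3 lay within the TDD range. The change with TDD in SPF mice was -1.07 (standard error 0.27, q = 0.0113, edgeR) and was called. It fell under 2-fold without CD mouse 4, CD mouse 5 or TDD mouse 1, to -0.98, -0.77 and -0.98, and without CD mice 4 and 5 together it was -0.47 (q = 0.193, edgeR). In ABX-treated mice the change was 0.25 (standard error 0.28, q = 0.729, edgeR). ABX lowered Cxcr3 on CD (log2 fold change -1.67, standard error 0.27, q = 0.000913, edgeR), and without CD mice 4 and 5 it was still called at -1.06 (q = 0.00754, edgeR). On TDD the change with ABX was -0.35 (q = 0.399, edgeR).

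Per 100 CPM of summed T cell markers, Cxcr3 stood at 1.78 to 3.80 CPM on CD, 1.45 to 2.18 on TDD, 1.90 to 3.26 in CD+ABX mice and 1.75 to 3.51 in TDD+ABX mice. These ranges overlapped in all pairs of groups. Of the 13 T cell markers, 1 was called lower on TDD in SPF mice (Cd8b1, a chain of the CD8 coreceptor, -2.33, q = 0.00839, edgeR), and none without CD mice 4 and 5, where 0.993% of all genes were called lower with all mice. Of the 13 changes 11 were negative, but Trdc was higher at 0.59 (q = 0.0195, edgeR), under 2-fold. The median change of the list was -0.51 with all mice and -0.01 without CD mice 4 and 5. With ABX on CD, 9 of the 13 were called lower, where 1.67% of all genes were, and 7 without these 2 mice. The part of T cell number in the change of Cxcr3 was not tested.

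Ccl5, which effector and memory CD8 T cells and NK cells express strongly, was at 13.1, 8.37, 6.72, 37.9 and 52.4 CPM on CD and at 9.73, 5.73, 7.76, 6.85 and 7.97 CPM on TDD. With ABX it was at 3.70, 3.81, 5.61, 3.99 and 4.58 CPM on CD and at 3.51, 6.44, 3.33, 3.78 and 5.0 CPM on TDD. Only CD mice 1, 4 and 5 lay above the TDD range, whereas all CD mice lay above all CD+ABX mice. The change with TDD in SPF mice was -1.64 (standard error 0.43, q = 0.017, edgeR). It was lost without CD mouse 5 (-1.13, q = 0.065, edgeR), and without CD mice 4 and 5 it was -0.31 (standard error 0.24, q = 0.482, edgeR). ABX on CD lowered Ccl5 (log2 fold change -2.45, standard error 0.45, q = 0.0021, edgeR), and without CD mice 4 and 5 the change of -1.11 was still called (q = 0.0107, edgeR). The diets with ABX differed by 0.02 (standard error 0.44, q = 0.99, edgeR), and ABX on TDD by -0.79 (q = 0.234, edgeR). In the fit without CD mice 4 and 5, the standard error of the latter was 0.21, and its change of -0.77 had q = 0.0222 by edgeR, still under 2-fold.

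Per 100 CPM of summed NK and cytotoxic cell markers, Ccl5 stood at 29.7 to 49.3 CPM on CD, 19.4 to 26.4 on TDD, 17.0 to 24.8 in CD+ABX mice and 22 to 28 in TDD+ABX mice. By this ratio all 5 CD mice lay above the other groups. Per 100 CPM of T cell markers, CD and TDD mice overlapped, at 9.54 to 34.4 and 8.43 to 21.7 CPM. Of the 11 NK and cytotoxic markers, 2 were called lower on TDD in SPF mice (Gzmk, a granzyme, and Nkg7, a granule protein), where 0.993% of all genes were. The list did not move in 1 direction: 7 of the 11 changes were negative, and Klrb1c was higher at 0.97 (q = 0.0135, edgeR), under 2-fold. Of this list, Gzmk and Eomes passed the filter only through CD mice, so that their falls from CD were favoured in advance. Without CD mice 4 and 5 Eomes was not tested, and 1 of the 10 tested was called lower, Gzmk. The median change of the list was -0.74 with all mice and 0.19 without these 2. With ABX on CD, 6 were called lower, where 1.67% of all genes were, and 2 of 10 without these mice. Gzmk was also newly called, higher on TDD in ABX-treated mice, in the fit without them (1.42, q = 0.0413, edgeR). Its levels there were near the floor, at 0.092 ± 0.029 CPM on CD+ABX and 0.250 ± 0.070 on TDD+ABX (SD, n = 5), under the 0.5 CPM of the filter.

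**Figure D3:**
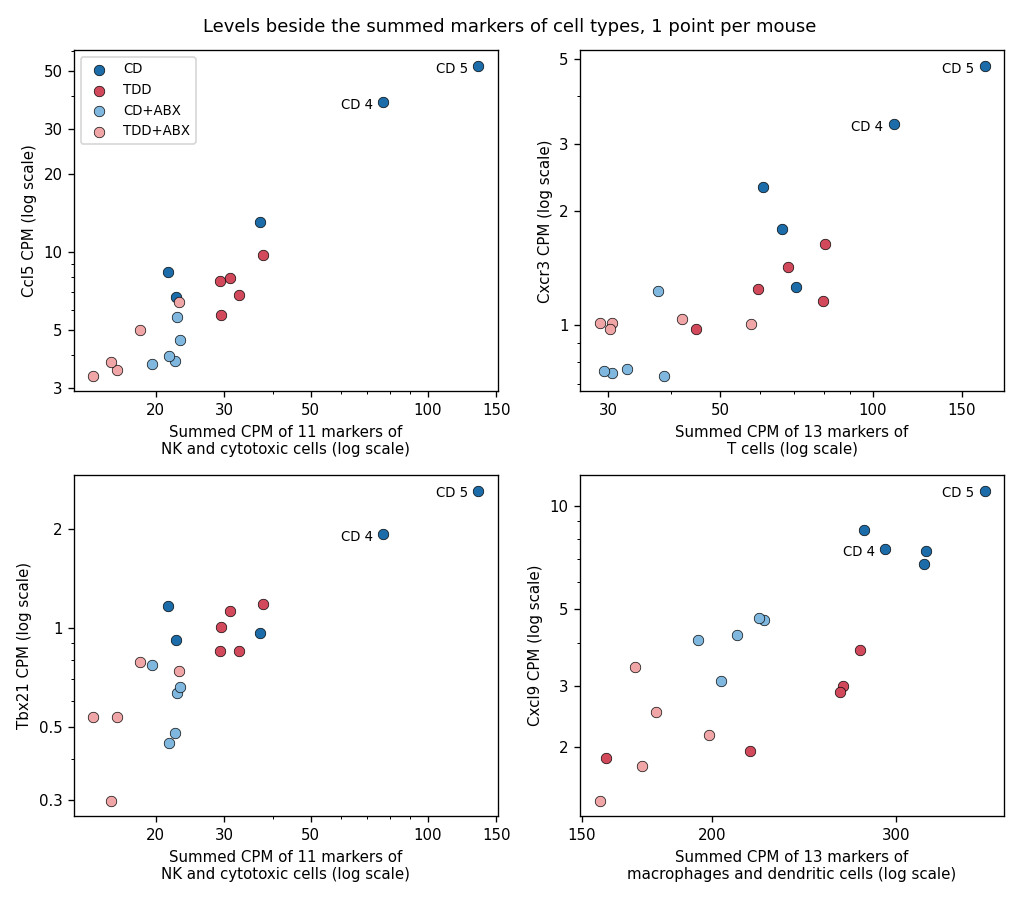
Level of Ccl5, Cxcr3, Tbx21 and Cxcl9 (vertical axes, CPM, log scale) against the summed CPM of marker genes of a cell type (horizontal axes, log scale), with 1 point per mouse coloured by group. CD mice 4 and 5 lie at the upper right for Ccl5 (37.9 and 52.4 CPM), Cxcr3 and Tbx21, whereas all 5 CD mice lie above the TDD mice for Cxcl9.

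Ccl3 and Ccl4, a pair of inflammatory chemokines encoded by neighbouring genes, were low. Ccl3 ranged from 0.465 to 1.47 CPM in CD mice (median 0.598), 0.275 to 0.552 in TDD mice, 0.312 to 0.490 in CD+ABX mice and 0.269 to 0.378 in TDD+ABX mice. Ccl4 ranged from 0.395 to 1.24 CPM in CD mice (median 0.619), 0.228 to 0.458 in TDD mice, 0.0959 to 0.327 in CD+ABX mice and 0.103 to 0.358 in TDD+ABX mice. Both were highest in CD mouse 5 and next in CD mouse 1, and the CD and TDD ranges overlapped for both. With TDD in SPF mice, Ccl3 changed by -0.83 (standard error 0.28, q = 0.0533, edgeR) and Ccl4 by -1.005 (standard error 0.37, q = 0.0726, edgeR), neither past the threshold. Without CD mouse 2, Ccl4 was called at -1.17 (q = 0.0313, edgeR), and without CD mouse 5 the changes were -0.49 and -0.72. ABX on CD lowered Ccl4 (log2 fold change -1.53, standard error 0.37, q = 0.0115, edgeR), with all CD mice above all CD+ABX mice, but not without CD mice 4 and 5 (-1.21, q = 0.0764, edgeR). Ccl3 changed by -0.97 there, with q = 0.0283 (edgeR) but under 2-fold, and was called without CD mouse 2, 3 or 4 or CD+ABX mouse 1 or 5, but stood at -0.62 without CD mouse 5 (q = 0.108, edgeR) and at -0.65 without CD mice 4 and 5 (q = 0.142, edgeR). Ccl4 had 4 to 59 counts per mouse and passed the filter of 0.5 CPM only through CD mice, so that a fall from CD was favoured in advance.

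Tbx21, which encodes T-bet, was at 0.964, 1.16, 0.917, 1.93 and 2.61 CPM on CD and at 1.18, 1.01, 0.849, 0.853 and 1.12 CPM in TDD mice. It was at 0.771, 0.479, 0.635, 0.448 and 0.660 CPM on CD+ABX and at 0.537, 0.740, 0.537, 0.298 and 0.790 CPM on TDD+ABX. On either diet, all mice without ABX lay above all mice with ABX. ABX lowered Tbx21 on CD (log2 fold change -1.34, standard error 0.29, q = 0.0058, edgeR). This was -0.75 without CD mice 4 and 5 and was not called (q = 0.083, edgeR). On TDD the change with ABX was -0.79 (standard error 0.29, q = 0.0721, edgeR), and -0.78 with q = 0.0306 (edgeR) in the fit without those 2 mice. The diets differed by -0.60 in SPF mice (standard error 0.28, q = 0.17, edgeR), by -0.03 without CD mice 4 and 5 (standard error 0.26), and by -0.05 with ABX (standard error 0.30, q = 0.959, edgeR). Per 100 CPM of NK and cytotoxic markers, Tbx21 stood at 1.94 to 5.39 CPM on CD and at 2.07 to 3.93 in CD+ABX mice, which overlapped.

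Ifng, the cytokine gene of the axis, was near the limit of detection. It had 2, 6, 2, 4 and 10 counts on CD, 0, 1, 1, 4 and 1 on TDD, 0, 1, 1, 1 and 1 on CD+ABX, and 0, 2, 1, 0 and 0 on TDD+ABX. Each of the 5 CD mice had more counts than any CD+ABX mouse. By the two-sided exact permutation test of CPM, CD and CD+ABX mice differed (p = 0.00794, the smallest this design allows, and 0.0318 after Benjamini-Hochberg adjustment over 4 comparisons). The other comparisons gave exact permutation p = 0.0714 for the diet in SPF mice, 0.683 for the diet with ABX and 0.437 for ABX on TDD. With CD mice 4 and 5 left out, exact permutation gave p = 0.0357 for CD against CD+ABX, the smallest that 3 mice against 5 allow, and 0.25 for the diet in SPF mice, both unadjusted. In an edgeR fit without the filter, the change with ABX on CD was -2.51 (standard error 0.77, q = 0.0531, edgeR) and that with TDD in SPF mice -1.69 (standard error 0.71, q = 0.177, edgeR).

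Taking the comparisons in turn, 4 of the 8 genes tested were called lower with TDD in SPF mice (Cxcl9, Cxcl10, Cxcr3 and Ccl5) and none higher, where 0.993% of all genes tested were called lower and 0.834% higher. The median log2 fold change of the 8 was -1.04, against 0.01 over all genes. CD and TDD mice did not overlap for 3 of the 8 (Cxcl9, Cxcl10 and Cxcl11, all lower), against 4.9% of all genes. Only Cxcl9 and Cxcl10 were called without CD mice 4 and 5, and the median was then -0.50. The calls of Cxcr3 and Ccl5 were also lost by limma-voom (-0.91 with q = 0.0361, and -1.19 with q = 0.102) and when the 2 SPF groups were fitted alone (q = 0.0663 and 0.0957, edgeR).

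With ABX, 0 of the 8 genes were called between the diets, where 0.159% of all genes were called lower and 0.147% higher. Of the 8, 2 had an unadjusted p under 0.05 by edgeR (Cxcl9 and Cxcl10), against 14.7% of all genes, and DESeq2 and limma-voom also called 0. The median change was -0.05, and no gene of the 8 separated the 2 groups, where 2.43% of all genes did so with lower and 2.35% with higher values on TDD.

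ABX treatment of CD mice gave 4 called genes of 8 (Cxcr3, Ccl4, Ccl5 and Tbx21), all lower, where 1.67% of all genes were called lower and 0.576% higher. Cxcl9 and Ccl3 also had q under 0.05 (edgeR) but were just under 2-fold, and 7.37% of all genes were lower at q under 0.05. The groups did not overlap for 5 of the 8, all lower (Cxcl9, Cxcr3, Ccl4, Ccl5 and Tbx21), against 5.88% of all genes. Ccl4 reached 0.5 CPM, the filter level, only in CD mice. A fall from CD was thereby favoured in advance, and the call and separation of Ccl4 add no support. Cxcr3 and Ccl5 were still called without CD mice 4 and 5. CD mice were used in both this comparison and that of the diets in SPF mice, so the 2 results are not independent.

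**Figure D4:**
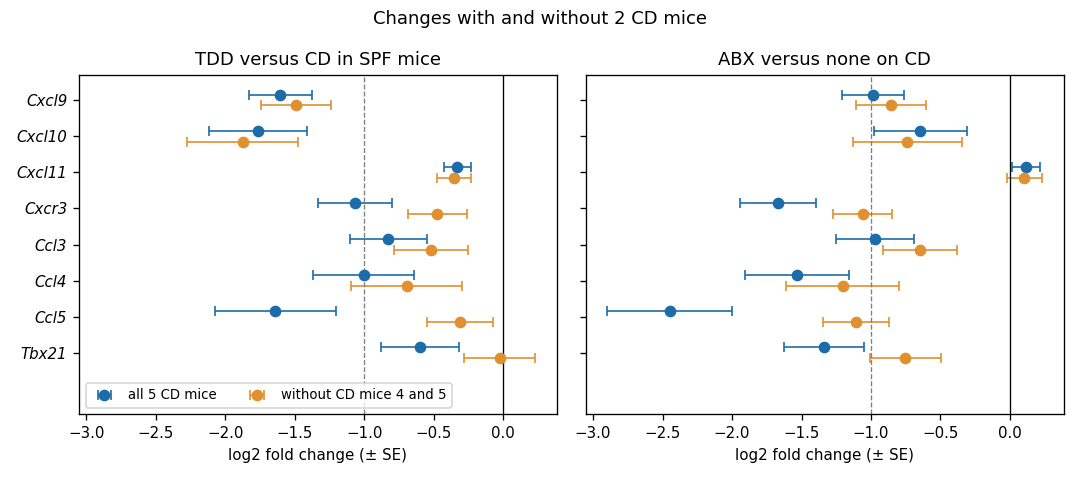
Log2 fold change with its standard error (horizontal axes) of the 8 genes with all 5 CD mice (blue) and without CD mice 4 and 5 (orange), for TDD against CD in SPF mice on the left and for ABX against none on CD on the right, with dashed lines at the 2-fold limit. On the left, Cxcl9 and Cxcl10 stay near -1.49 and -1.87 without the 2 mice, whereas Ccl5 goes from -1.64 to -0.31.

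On TDD, ABX gave 0 called genes of 8 by edgeR, DESeq2 and limma-voom, where 1.26% of all genes were called lower and 0.368% higher. Cxcl11 and Tbx21 had an unadjusted p under 0.05 (edgeR), against 30.5% of all genes. Their groups did not overlap, Cxcl11 being higher and Tbx21 lower with ABX, where 5.97% and 5.05% of all genes separated in these directions.

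Whether the effect of the diet differed between SPF and ABX-treated mice was tested as an interaction. It was called for 0 of the 8 genes by edgeR, DESeq2 and limma-voom, against 0.0245% of all genes by edgeR. An unadjusted p under 0.05 was reached by 4 of the 8, against 8.87% of all genes. The difference between the effects was 1.32 for Cxcr3 (standard error 0.38, q = 0.233, edgeR), 1.66 for Ccl5 (standard error 0.62, q = 0.385, edgeR), 0.72 for Cxcl9 (standard error 0.32, q = 0.51, edgeR) and 0.33 for Cxcl11 (standard error 0.14, q = 0.49, edgeR). In the fit without CD mice 4 and 5, an unadjusted p under 0.05 was reached by 2 of the 8, Cxcr3 (difference 0.72) and Cxcl11 (0.35), and the differences of Cxcl9 and Ccl5 were 0.60 and 0.33. The diet effects in the 2 settings were therefore not shown to differ for any gene of the axis.

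The rest of the pathway was read from named lists. Of 14 genes induced by interferon-gamma, 11 were lower with TDD in SPF mice at q under 0.05 (edgeR), where 7.71% of all genes were. Of the 14, 3 were called lower, where 0.993% of all genes were. These were Igtp, an immunity-related GTPase (-1.47, q = 0.00135), Ido1, which degrades tryptophan (-1.42, q = 0.0157), and Gbp3, a guanylate-binding protein (-1.03, q = 0.000186, all by edgeR). The median of the list was -0.71, and without CD mice 4 and 5 it was -0.51, with 8 genes lower at q under 0.05 and 2 called, Igtp and Ido1. With ABX, 1 of the 14 was called between the diets (Ido1, -1.57, q = 0.0415, edgeR), where 0.159% of all genes were called lower, and it was not called without CD mice 4 and 5 (q = 0.0538, edgeR). ABX on CD lowered 9 of the 14 at q under 0.05 (edgeR), where 7.37% of all genes were. It called 1, Nlrc5, an activator of class I antigen presentation (-1.03, q = 0.00456, edgeR), where 1.67% of all genes were called lower. Without CD mice 4 and 5, 2 were lower at q under 0.05 and none was called there.

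Of the 9 genes for the interferon-gamma receptor and its signalling, Irf1, an interferon-induced transcription factor, went from 174.9 ± 20.4 to 133.6 ± 19.4 CPM with TDD in SPF mice (SD, n = 5; -0.39, q = 0.0229, edgeR), under 2-fold. It did not keep its q without CD mice 4 and 5 (0.117, edgeR). Socs3, an inhibitor of cytokine signalling, was the 1 gene of this list called, where 0.834% of all genes were called higher. Its level rose from 33.6 ± 9.12 to 137.4 ± 31.2 CPM (SD, n = 5, log2 fold change 2.03, q = 1.73e-05, edgeR), and by 2.01 without CD mice 4 and 5. With ABX, Irf1 changed with diet by -0.18 (q = 0.472, edgeR).

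Of 16 inputs to type 1 differentiation, 13 were tested. With TDD in SPF mice the list as a whole did not move, with 6 of the 13 changes negative and a median of 0.03. One gene of the list, Il12rb2, a subunit of the interleukin-12 receptor, was called there (from 1.002 ± 0.288 to 0.471 ± 0.132 CPM, SD, n = 5, -1.08, q = 0.0116, edgeR), where 0.993% of all genes were called lower. Without CD mice 4 and 5 its change of -1.04 missed the threshold (q = 0.0501, edgeR). ABX on CD called 4 lower, where 1.67% of all genes were: Eomes, the relative of T-bet in cytotoxic cells (-3.64, q = 0.00689), Il12rb1 (-1.34, q = 0.00173), Il27ra (-1.30, q = 0.00734) and Stat4, the transducer of interleukin-12 (-1.34, q = 0.00601, all by edgeR). Eomes passed the filter only through CD mice, at 0.337 ± 0.346 CPM on CD and 0.148 ± 0.054 on TDD (SD, n = 5). A fall from CD was thereby favoured in advance, and its call adds no support. Without CD mice 4 and 5 Eomes was not tested, and of the 12 tested 1 was called, Il27ra. On TDD, ABX called Il27ra (-1.02, q = 0.0245, edgeR) and Stat4 (-1.22, q = 0.0103, edgeR), where 1.26% of all genes were called lower.

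Among mice of the same group, after subtraction of group means from log2(CPM + 0.5), the 8 genes and the summed T cell and macrophage and dendritic cell markers gave 44 relations over 20 mice, of which 42 were positive. One passed adjustment, against 7 with a pseudocount of 1 in place of 0.5: Ccl3 with Ccl4 (Pearson's r = 0.845, permutation p = 0.00024, q = 0.011, and Spearman's rho = 0.75, permutation p = 0.0018, q = 0.059). Without the 2 mice farthest from the median of Ccl3, r was 0.709 (permutation q = 0.068). For Cxcl9 and Cxcl10, r was 0.717 (permutation p = 0.0023, q = 0.051) and rho 0.705 (p = 0.0029, q = 0.059), and r was 0.606 without the 2 farthest mice. For Ccl5 and Tbx21, r was 0.822 (permutation p = 0.0035, q = 0.051) and rho 0.75 (p = 0.0062, q = 0.062), but without the 2 farthest mice r was 0.415, so that this relation rests on them. Cxcl10 and Ccl5 gave r = -0.05 (permutation p = 0.91, q = 0.94) and rho = 0.065 (permutation p = 0.81, q = 0.89).

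By Pearson's r of log2(CPM + 0.5) over all 20 mice, a description without a test in which the groups themselves add to the likeness, the 8 genes most like Cxcl9 were Trim6, Gbp6, Iigp1, Fbln5, Bgn, Gbp3, C1qb and Lilra5 (r from 0.906 to 0.929). Gbp6, Gbp3 and Iigp1 are interferon-induced GTPases with close paralogs, between which reads could have been split, C1qb is a macrophage complement gene, and Fbln5 and Bgn encode matrix proteins. The 8 genes most like Ccl5 were Nkg7, Cd8a, Itgae, Ctsw, Gzmk, Cd7, H2-Q4 and Cd160 (r from 0.924 to 0.986). Nkg7, Ctsw and Gzmk encode cytotoxic granule proteins, Cd8a a coreceptor chain of CD8 T cells and Itgae an integrin chain of intraepithelial T cells, while H2-Q4 has near-identical relatives. The 2 lists shared no gene.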

How the data were processed

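Poly-A libraries from the terminal ileum of 20 mice were sequenced (Illumina NovaSeq), and per the labels the authors quantified transcripts of GRCm38 using kallisto 0.44.0. The authors deposited estimated counts per gene, which are not normalized, and estimated counts and TPM per transcript. Whether the libraries kept strand is not given in the sources used here. Estimated counts were rounded, scaled by TMM and tested with edgeR 4.0.16 (quasi-likelihood, robust, R 4.3.3), with the 4 groups in 1 fit. The test covered 16306 of 35204 genes, those that reached 0.5 CPM in 1 mouse or more. Single-gene permutation tests were exact, and correlations used 100000 permutations within groups. The edgeR fit was tested on simulated data. Alternatives were RLE and upper-quartile scaling, other filters, DESeq2 1.42.0, limma-voom (limma 3.58.1), log2(TPM + 1), the replicate number as a block, groups fitted alone and mice left out. Named genes were the 9 genes of the axis, genes called from fixed lists (at most 6 per list and comparison), Irf1, and the 8 genes most like Cxcl9 and Ccl5, and a few results of this rule are not reported here. These genes and lists were chosen with earlier results of these data known. Of 12625 genes compared with their transcripts, 141 held 2 times their sum, none of them a gene of the axis or the lists. Depths were 36.68 to 58.66 M counts per mouse. Samples are separate mice.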

Additional observations from a re-analysis of the deposited data

Results flagged for a closer look

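In 36 sets of 1 gene of the axis in 1 group of 5 mice, the highest or lowest mouse was set apart from the others in 3, where chance marks about 1 set in 20. Cxcr3 in CD+ABX mouse 3 was at 1.23 CPM and the other 4 mice of the group at 0.735 to 0.767, a gap of 0.935 of the group's range. Without this mouse, Cxcr3 changed by -1.84 with ABX on CD and was still called. Ifng in TDD mouse 4 had 4 counts against 0 or 1 in the others, a gap of 0.792 of the range in CPM, and Ifng in CD+ABX mouse 1 had 0 counts against 1 in each of the others, a gap of 0.786. At such counts a single read decides the gap.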

How the results depend on the processing

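No change of a called gene turned its direction under any alternative. Of the changes of the 8 genes in the 5 comparisons, 1155 values stayed on the same side of the threshold, 12 passed it newly and 17 no longer passed. With TDD in SPF mice, 4 genes were called, against 2 by limma-voom, 2 with the groups compared fitted alone, 2 without CD mice 4 and 5, and 2 to 5 with 1 mouse left out, the fewest without CD mouse 5. With TDD in ABX-treated mice the number was 0 to 1 with 1 mouse left out, the 1 being Cxcl9 without TDD+ABX mouse 2. With ABX on CD, 4 were called, against 1 on the scale of log2(TPM + 1), which understates changes of low genes, 2 without CD mice 4 and 5, and 4 to 6 with 1 mouse left out, where Cxcl9 and Ccl3 crossed the fold limit. With ABX on TDD, 1 gene passed without the fold limit (Cxcl11). For the correlations, a pseudocount of 1 gave 7 relations past the threshold in place of 1. The cause of these differences was not tested, also for the TPM scale. The replicate numbers do not pair the mice: 5 of 30 same-numbered pairs of groups correlated over 0.1 (from -0.417 to 0.289), and 0 of 20 mice correlated best with their own number. With the replicate number as a block, 3 genes were called with TDD in SPF mice (Ccl5 was not, -1.41, q = 0.0583, edgeR), and no other call changed. Ifng, Ccl3 and Ccl4 had at most 10, 70 and 59 counts per mouse, and the part of depth in their errors was not tested.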

Other observations

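Chemokines outside the axis were mostly not called. Of 21 tested, Ccl24, a ligand of CCR3 made by resident macrophages, was called lower with TDD in SPF mice (from 1.37 ± 0.431 to 0.624 ± 0.143 CPM, SD, n = 5; -1.14, q = 0.0243, edgeR) and with ABX on CD (-1.57, q = 0.00492, edgeR). Without CD mice 4 and 5, these were -1.08 (q = 0.0972, edgeR) and -1.5 (q = 0.0271, edgeR). On TDD, ABX called Cxcl2 lower (-2.41, q = 0.0205, edgeR), a neutrophil chemokine at 0.20 ± 0.233 CPM without ABX. Of all genes, 0.993% were called lower with TDD in SPF mice, 1.67% with ABX on CD and 1.26% with ABX on TDD. The median log2 fold change of the list was 0.06 with TDD in SPF mice, against -1.04 for the axis.

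Of 12 other chemokine receptors tested, Cxcr6, which marks resident T and NK cells, was called lower with TDD in SPF mice (-1.003, q = 0.0109, edgeR) and with ABX on CD (-1.23, q = 0.00374, edgeR). ABX on CD also lowered Ccr9, the gut-homing receptor (-1.004, q = 0.0032, edgeR), and on TDD it lowered Ccr10 (-1.10, q = 0.00483, edgeR). The shares of all genes called lower were 0.993% with TDD in SPF mice, 1.67% with ABX on CD and 1.26% with ABX on TDD. Without CD mice 4 and 5, Cxcr6 changed by -0.40 (q = 0.171, edgeR) with TDD and by -0.62 (q = 0.0369, edgeR) with ABX on CD, and Ccr9 by -0.62 (q = 0.0411, edgeR), none of them called. In the same fit, Ccr6, a receptor of B cells and T helper 17 cells, and its ligand gene Ccl20 were newly called lower with ABX on CD, at -2.86 (q = 0.0457, edgeR) and -2.69 (q = 0.0403, edgeR). With all mice they stood at -2.26 (q = 0.0872, edgeR) and -2.20 (q = 0.0544, edgeR). CD mice 4 and 5 had the lowest summed B cell markers of the CD group, at 6.03 and 4.99 CPM. CD mice 1, 2 and 3, which stayed in the fit, had 7.11, 74.4 and 109.9 CPM. The part of B cell number in these new calls was not tested.

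The summed level of 7 B cell markers varied widely within groups, from 4.99 to 109.9 CPM on CD, 5.32 to 169.5 on TDD, 3.02 to 8.96 on CD+ABX and 4.20 to 120.1 on TDD+ABX, and 0 of the 7 were called by edgeR in any of the 5 comparisons. Between the diets with ABX, 6 of the 7 had an unadjusted p under 0.05 (edgeR), against 14.7% of all genes. With ABX on CD, all 7 changes were negative (median -3.33). Epithelial markers summed to between 8218 and 16070 CPM over all mice, with 0 of 8 called by edgeR and 0 to 4 at an unadjusted p under 0.05 over the 5 comparisons. The 4 were with ABX on TDD, where 30.5% of all genes had an unadjusted p under 0.05. Of 9 stromal, endothelial and muscle markers, 2 collagen genes were called lower with TDD in SPF mice, where 0.993% of all genes were. These were Col1a1 (-1.09, q = 7.6e-05, edgeR) and Col3a1 (-1.15, q = 0.000176, edgeR).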
